A study of Mus musculus with 16 samples.

Results

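The genes of voltage-gated calcium channels were examined in the ATAC-seq peak lists of pancreatic islets. The 8 genes are *Cacna1a*, *Cacna1c*, *Cacna1d*, *Cacna1e* and *Cacna1h*, which encode pore-forming α1 subunits, *Cacnb2* and *Cacnb3*, which encode cytoplasmic β subunits, and *Cacna2d1*, which encodes an α2δ subunit. Peaks of the 16 sample lists that touched or overlapped were merged on the 19 autosomes, and a merged region belonged to a gene if it overlapped the gene body or the 3 kb upstream of it. This gave 580 regions of 347712, of which 73 had a peak in every sample, out of 40940 such regions genome-wide.

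Each of 8 inbred mouse strains gave 1 female and 1 male sample, prepared from 50 islets. The classical strains were 129S1_SvImJ (129), A_J (AJ), C57BL/6J (B6), NOD_ShiLtJ (NOD) and NZO_HlLtJ (NZO), and the wild-derived strains were CAST_EiJ (CAST), PWK_PhJ (PWK) and WSB_EiJ (WSB). No treatment or engineered allele is named in the labels. Reads of every strain were aligned to the B6 reference. Each strain has only its female and its male as replicates, and the mean difference between the sexes is taken out by a sex term. A p-value for strain thus sets differences against how the female-to-male gap varies among strains, with the variance drawn toward that of all regions. No label says whether the islets of a sample came from 1 animal.

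Calcium entry through these channels is the step that couples electrical activity to insulin release. When glucose metabolism closes the ATP-sensitive potassium channels of a β-cell, the membrane depolarises, the α1 pore opens and the calcium that enters triggers the fusion of insulin granules. The α1 subunit sets the current type, which is L-type for *Cacna1c* (CaV1.2) and *Cacna1d* (CaV1.3), P/Q-type for *Cacna1a* (CaV2.1), R-type for *Cacna1e* (CaV2.3) and T-type for *Cacna1h* (CaV3.2), while β and α2δ subunits promote trafficking of the pore to the membrane and tune its gating. ATAC-seq reads report how open the chromatin was and not how much of a channel was made.

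Sequences from the regions with the smallest p for strain are shown first. They are windows of the B6 reference (RefSeq copy of GRCm38, plus strand) that reach 100 bases to each side of the median summit of 5 regions, each being the region of its gene with the smallest p for strain among the genes with a called region, and of the strongest region seen in both samples of 1 strain and in no other sample. Capitals mark matches to 8 short motifs, whose counts are given further on. In order, the windows lie at chr6:118935985-118936185 (in a region high in NZO), chr14:30159498-30159698 (PWK low), chr1:154820159-154820359 (WSB and CAST high), chr5:16062782-16062982 (CAST low), chr2:14936589-14936789 (PWK low) and chr6:119159704-119159904 (called in CAST samples alone). All 6 lie in introns. The *Cacna1c* intron 3 region is long, and its window holds the summits of the 129 female and the B6 male alone, so it does not show the sequence under the NZO summits. The other windows hold 13 to 16 of the 16 summits, and in the CAST window both of the 2 summits.
Cacna1c, intron 3: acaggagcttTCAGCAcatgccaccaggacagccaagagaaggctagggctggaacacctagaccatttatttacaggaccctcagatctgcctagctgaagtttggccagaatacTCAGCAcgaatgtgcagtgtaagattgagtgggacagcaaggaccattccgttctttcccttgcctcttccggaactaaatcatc
Cacna1d, intron 8: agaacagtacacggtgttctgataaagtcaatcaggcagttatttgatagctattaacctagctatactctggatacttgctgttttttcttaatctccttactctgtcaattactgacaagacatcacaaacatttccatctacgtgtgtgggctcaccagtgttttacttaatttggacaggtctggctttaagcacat
Cacna1e, upstream intron: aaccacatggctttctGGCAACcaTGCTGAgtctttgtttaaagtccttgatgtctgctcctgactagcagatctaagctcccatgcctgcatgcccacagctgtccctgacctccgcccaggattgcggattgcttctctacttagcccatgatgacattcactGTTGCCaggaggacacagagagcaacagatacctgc
Cacna2d1, intron 3: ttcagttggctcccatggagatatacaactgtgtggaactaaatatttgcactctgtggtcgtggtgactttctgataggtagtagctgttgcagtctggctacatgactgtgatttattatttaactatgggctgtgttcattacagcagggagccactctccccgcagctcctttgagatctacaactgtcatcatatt
Cacnb2, intron 2: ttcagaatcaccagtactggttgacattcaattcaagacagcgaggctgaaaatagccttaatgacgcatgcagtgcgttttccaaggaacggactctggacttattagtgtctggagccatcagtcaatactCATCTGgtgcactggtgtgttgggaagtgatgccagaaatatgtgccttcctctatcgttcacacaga
Cacna1c, intron 1: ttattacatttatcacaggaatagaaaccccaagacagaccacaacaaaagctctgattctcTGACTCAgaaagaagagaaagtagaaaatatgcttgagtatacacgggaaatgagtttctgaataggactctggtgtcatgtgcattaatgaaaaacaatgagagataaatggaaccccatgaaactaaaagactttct
The *Cacna1c* intron 3 window held 2 matches to the MAF core, and the *Cacna1e* window held 1 MAF core and 2 RFX matches. A single E-box marked the *Cacnb2* window and a single AP-1 match the CAST window of *Cacna1c*, whereas the *Cacna1d* and *Cacna2d1* windows held none of the motifs searched.

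Chromatin of the channel genes was accessible mainly inside introns. Of the 580 regions, 504 (86.9%) were intronic, 51 (8.79%) lay within 1 kb of a transcription start site and 24 were exonic, while 40.1% of all autosomal regions and 70.6% of those in genes or near a start site were intronic. The choice of regions by gene bodies itself raises this share. Among the 73 regions called in all samples, 52 (71.2%) were intronic and 16 (21.9%) were at a start site, against 30.8% and 33.3% of all such regions, or 43.4% and 47.0% with intergenic regions left out. A region of these genes was called in a median of 3 samples and was 288 bases wide at the median, against 2 samples and 200 bases genome-wide. Regions called in a single sample made up 34.1% of the channel gene regions and 46.4% of all regions, and those called in all 16 made up 12.6% and 11.8%.

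**Figure D1:**
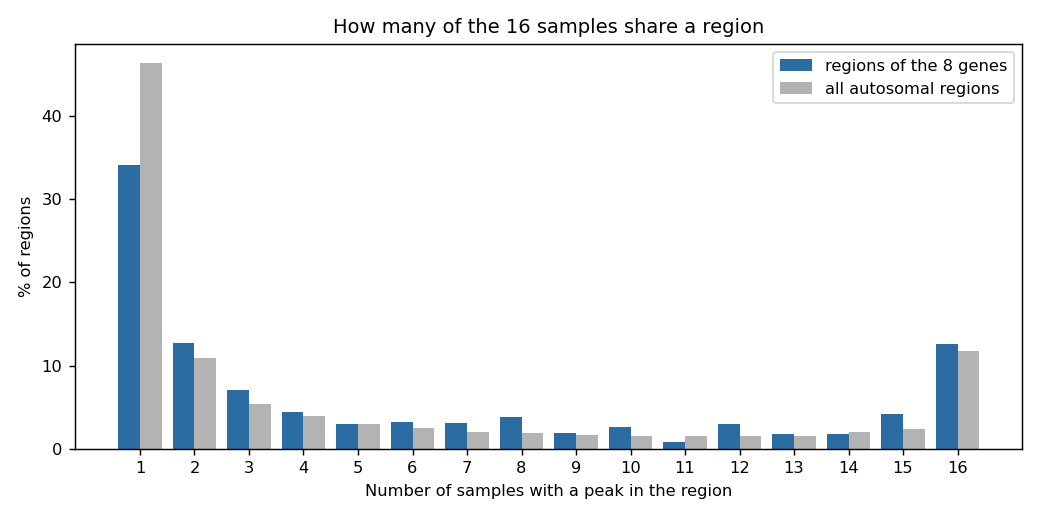
Percent of regions (y axis) by the number of samples with a peak in the region (x axis), for the 580 regions of the 8 channel genes (blue bars) and all 347712 autosomal regions (grey bars). Single-sample regions are 34.1% of the channel gene regions and 46.4% of all regions, and the bars at 16 samples are close to each other at 12.6% and 11.8%.

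The genes differed widely in how much accessible chromatin they held. *Cacnb2* had 157 regions over 385 kb, *Cacna2d1* 150 over 440 kb, *Cacna1c* 111 over 609 kb, *Cacna1d* 78 over 452 kb and *Cacna1a* 47 over 252 kb. *Cacna1e* had 29 regions over 494 kb, or 5.84 regions per 100 kb of gene and upstream flank, against 40.5 for *Cacnb2*. *Cacna1h* and *Cacnb3*, the shortest genes at 59.5 kb and 13.7 kb, had 4 regions each. Regions called in every sample numbered 26 in *Cacnb2*, 21 in *Cacna1c*, 12 in *Cacna2d1*, 7 in *Cacna1d*, 6 in *Cacna1e*, 1 in *Cacna1a* and 0 in *Cacna1h* and *Cacnb3*.

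In each of the long genes the sample with the most called regions was wild-derived. This did not hold for every wild-derived strain, since in *Cacna1d* PWK had 30 and 25 regions and NZO 24 and 36. In *Cacnb2* the 6 wild-derived samples had 60 to 113 regions and the 10 classical samples 34 to 53, and in *Cacna2d1* they had 55 to 91 against 26 to 50, so the classes did not overlap in either gene. Every wild-derived sample lay above every classical one in 0.821% of the 36910 genes with a region and in 7.51% of the 173 with at least 100 regions, a limit chosen after the values were seen, and 3 of the channel genes reach it. In *Cacna1c* (42 to 78 against 27 to 49), *Cacna1d* (25 to 58 against 7 to 36), *Cacna1a* (9 to 36 against 3 to 18) and *Cacna1e* (13 to 21 against 8 to 15) the classes overlapped. List lengths also differed, at 121407 to 167051 autosomal peaks in wild-derived and 77887 to 141307 in classical samples, and the part of list length in these numbers was not tested. As a share of all regions called in a sample, the channel genes took, as a description with no test, 0.216% ± 0.0197 (SD, n = 3 strains) in the wild-derived and 0.178% ± 0.0133 (n = 5) in the classical strains. The share was 0.233% in WSB, 0.221% in CAST and 0.195% in PWK, while classical means ran from 0.163% in NZO to 0.194% in 129, so PWK and 129 lay side by side.

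**Figure D2:**
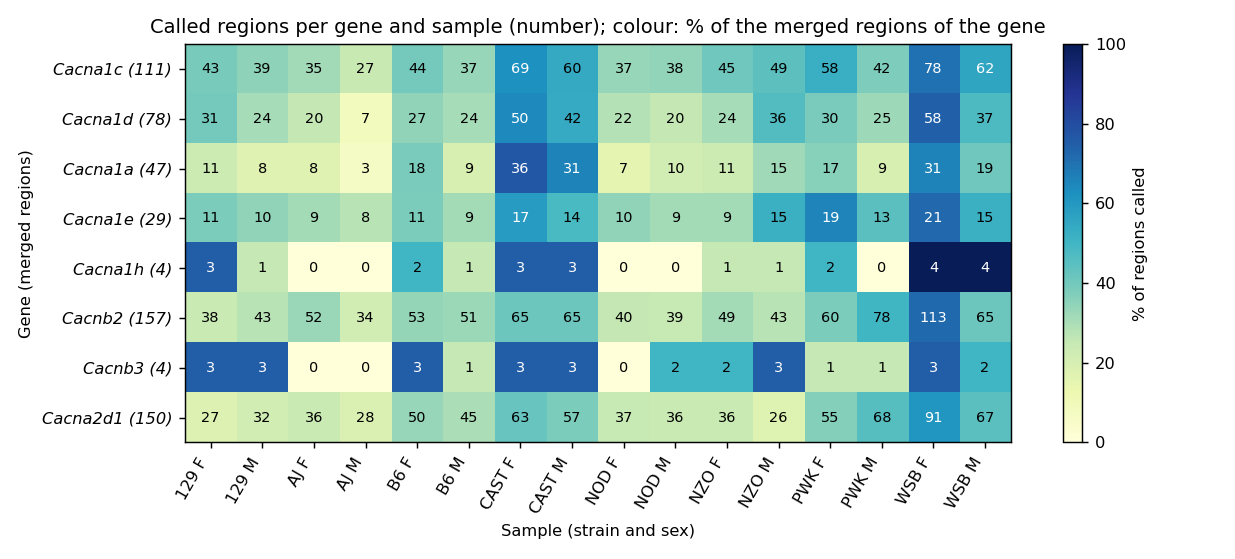
Number of called regions of each channel gene (rows, with the number of merged regions in parentheses) in each sample (columns, F female, M male), coloured by the percent of the regions of that gene that were called. The WSB female has the highest number in the *Cacnb2* row (113) and the *Cacna2d1* row (91), and both AJ samples have 0 in the rows of *Cacna1h* and *Cacnb3*.

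The signal of a region was its highest summit in a sample, and the scaled signal is that value divided by the median of the sample over the 40940 autosomal regions called in every sample, so 1 is the level of a typical shared region. The lowest sample median was 32 (PWK male) and the highest 136 (CAST male). A value of 0 means that no peak passed the threshold of the authors. Islets are mixtures, and more cells with an open region and a more open region per cell cannot be told apart. Of the 8 β-cell marker genes, 7 had a region near the 5′ end in every sample (*Ins2* had none), as did all 4 pan-endocrine genes. The count was 2 of 3 for α-cell, 0 of 2 for δ-cell and 0 of 1 for PP-cell markers. It was 1 of 8 for acinar, 1 of 4 for duct, 0 of 4 for endothelial and 0 of 6 for leukocyte markers. For stellate markers it was 1 of 3, and for Schwann and neuronal markers 2 of 3.

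To ask which channel gene regions differed among strains, log2(signal + 1) was centred on the sample median and tested with limma's moderated F test over all 40940 shared regions. Strain changed 28 of the 73 channel gene regions (38.4%) at an adjusted p below 0.05, against a background of 35.7% of all shared regions and 40.8% of the 12606 intronic ones, so the share is near the background. Of the 52 intronic channel gene regions 21 passed (40.4%), of the 16 at start sites 4 (25.0%) and of the 5 exonic ones 3. By gene, 5 of 6 regions passed in *Cacna1e*, 5 of 7 in *Cacna1d*, 9 of 26 in *Cacnb2*, 4 of 12 in *Cacna2d1*, 5 of 21 in *Cacna1c* and 0 of 1 in *Cacna1a*. The median range between the highest and lowest strain mean was 1.06 on the log2 scale for the 73 regions and 1.11 over all regions, beside a median female-to-male gap of 0.31 and 0.29. The count was not stable to the choice of samples, and the count over all regions moved with it. Without the CAST female it was 14, without the CAST male or the WSB female 15, without the WSB male or either NOD sample 16, and without the NZO female 45. These are 19.2% to 21.9% and 61.6% of the 73 regions, beside 18.7% to 24.0% and 60.1% of all regions. With the deposited mean signal of a peak in place of its summit it was 12, of which 9 were among the 28, and at 16.4% this share lay below the 27.8% of all regions. With no centring it was 50, or 68.5% against 63.2%. Of the 28 regions, 3 passed in every alternative that could be computed for them.

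**Figure D3:**
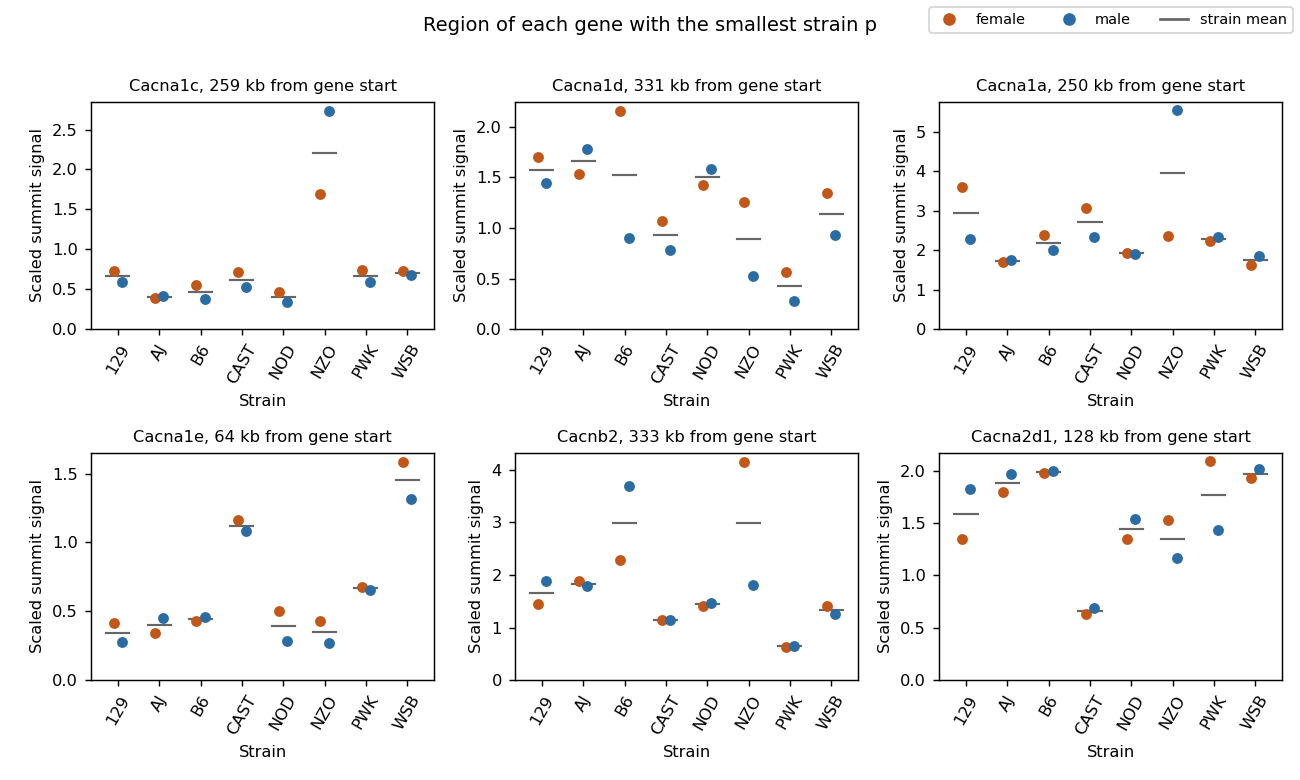
Scaled summit signal (y axis) in each strain (x axis) for the region of each gene with the smallest p for strain, with the female (orange), the male (blue) and the strain mean (grey line). NZO stands above the rest in *Cacna1c*, WSB and CAST in *Cacna1e*, CAST lies lowest in *Cacna2d1* and PWK lowest in *Cacnb2*, while in *Cacna1d* PWK has the lowest mean but overlaps the NZO male. The *Cacna1a* region did not pass the test, and its highest point is the NZO male alone at 5.56.

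*Cacna1c* (chr6:118587240-119196418, minus strand) encodes the L-type pore that carries much of the calcium current of mouse β-cells. Its lead region was a 7903-base stretch of intron 3 (transcript Cacna1c-222, chr6:118929044-118936946), 259 kb from the gene start, whose window is the first shown above. Scaled signal there was 1.69 in the NZO female and 2.73 in the NZO male, a mean of 2.21 ± 0.732 (SD, n = 2). The other strains ran from 0.341 in the NOD male to 0.742 in the PWK female, so neither NZO sample overlapped them. Against the lowest strain mean, 0.401 in AJ, NZO was 5.50 times higher, and strain passed the test (adjusted p = 0.000969). With the mean signal of a peak the adjusted p rose to 0.197. The summits of the samples lay within 1817 bases of each other, with those of the B6 female and both CAST samples apart from the rest, and the cause of the spread was not tested.

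The strongest shared region of *Cacna1c*, also in intron 3 (chr6:118921164-118922123), had a narrower range. It ran from 1.80 in the 129 male through a mean of 2.42 to 2.92 in the WSB male, and strain did not pass (adjusted p = 0.468, or 0.0218 with no centring). A 4703-base region over an internal start site (chr6:119105494-119110196), picked after its values were seen, ran from 1.76 to 2.95 with an adjusted p of 0.796. These sites lay 274 kb and 86.2 kb from the annotated gene start.

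Chromatin at the annotated 5′ end of *Cacna1c* was weak. The region there (chr6:119196555-119196999), which overlaps the neighbouring gene *Dcp1b*, was called in 10 samples and never rose above 0.327, the value of the NZO male. Of the 14 annotated start sites of the gene, 6 lay in a region called in every sample, none of them at the 5′ end. At an internal start site by exon 4 (chr6:118779888-118780923), picked after its values were seen, WSB was lowest at 0.528 and 0.545 while CAST reached 2.07 and 1.68 and PWK 1.79 and 1.94 in the female and the male. Both WSB samples lay below all the others, of which the 129 male at 0.667 was the nearest, and strain passed in the main fit (adjusted p = 0.00248) and in each alternative, up to 0.0333.

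*Cacna1d* (chr14:30039939-30491455, minus strand) encodes the L-type pore that opens at more negative voltages. No region lay at the 5′ end of the annotated gene, but an internal start site in intron 1 (chr14:30351803-30354442), 137 kb downstream and picked after its values were seen, was open in every sample, from 0.646 in the AJ female to 1.72 in the 129 and CAST females. Strain did not pass there (adjusted p = 0.162). In the lead region of the gene (intron 8 of Cacna1d-202, chr14:30159146-30160101), scaled signal was 0.565 in the PWK female and 0.281 in the PWK male. AJ had the highest mean at 1.66 ± 0.172 (n = 2), followed by 129 at 1.58 and B6 at 1.53, and the differences among these 3 were smaller than the B6 spread of 0.885. PWK, at 0.423 ± 0.200, overlapped the NZO male (0.527). Strain passed with an adjusted p of 0.00887, which rose to 0.0573 without the PWK male, to 0.145 without PWK and to 0.0545 when regions called in at least 12 samples were tested.

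The strongest shared region of *Cacna1d* lay in the same intron (chr14:30163906-30165174). It was highest in 129, at 4.31 in the female and 3.36 in the male, beside 1.35 to 3.24 in all other samples. The test passed narrowly (adjusted p = 0.0473) and was lost in 20 of 33 alternatives, among them each that left out a 129, CAST, NOD or WSB sample. A region of intron 1 that overlaps *Dcp1a* (chr14:30479143-30480205), picked after its values were seen, had its highest values in the 129 female (3.83), the NZO male (3.55) and the 129 male (2.36), against 1.00 to 2.06 elsewhere (adjusted p = 0.0373, lost in 15 of 33 alternatives).

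*Cacna1a* (chr8:84388440-84640246, plus strand) encodes the P/Q-type pore, best known from nerve terminals. Only 1 of its 47 regions was called in every sample, and it lay at the far end of the gene (chr8:84638480-84639934), over exons 46 and 47 of Cacna1a-201, where a short transcript starts. The NZO male had 5.56 and the NZO female 2.37, and the other samples ran from 1.63 in the WSB female to 3.60 in the 129 female. The NZO samples differed from each other by more than any pair of strain means did, and strain did not pass (adjusted p = 0.146, falling to 0.00633 without the NZO female and to 0.0155 with no centring). At the annotated gene start (chr8:84388800-84388999) a peak was called in 3 samples, at 0.0755 to 0.436. The start site of Cacna1a-201 itself lay in a region 25.7 kb downstream (chr8:84414100-84415876), picked after its values were seen, that was called in 15 samples, at 0.477 to 1.17, and not in the AJ male.

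*Cacna1e* (chr1:154390731-154884501, minus strand) encodes the R-type pore, linked in β-cells to later insulin release and granule supply. It was the only channel gene with shared regions in which every wild-derived sample lay above every classical one. At its lead region (chr1:154819980-154820487), 64.0 kb inside the gene and 3039 bases from the nearest annotated start site, scaled signal was 1.58 in the female and 1.32 in the male of WSB, 1.16 and 1.08 in CAST, and 0.677 and 0.656 in PWK. The 10 classical samples ran from 0.273 to 0.50 with a median of 0.421. All 6 wild-derived samples thus lay above all classical samples, and within the wild-derived class the 3 strains did not overlap either. WSB (1.45 ± 0.189, n = 2) was 4.21 times 129 (0.345 ± 0.0979). Strain passed with an adjusted p of 0.000775 and in each of 31 alternatives, the highest being 0.0116 without WSB. The difference between classes was 1.42 ± 0.26 (SE) on the log2 scale, and at an adjusted p of 0.113 it did not pass the test over all shared regions.

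Other parts of *Cacna1e* showed part of this order. A region 117 kb from the start (chr1:154767059-154767877), picked after its values were seen, ran from 1.30 to 1.98 in wild-derived and from 0.594 to 1.26 in classical samples, again with no overlap (adjusted p for strain = 0.0113, or 0.0527 with the mean signal of a peak, and for class 0.203). These 2 of the 73 regions had every wild-derived sample above every classical one, against 0.457% of all shared regions. The strongest shared region, in intron 7 of Cacna1e-203 (chr1:154500329-154501103), was highest in WSB at 1.78 and 2.01, but NZO came next at 1.64 and 1.49, so the classes overlapped there (adjusted p = 0.0194). The call was lost in 7 of 33 alternatives, those that left out WSB or NOD or a sample of either (0.0564 to 0.105) and the mean signal of a peak (0.202). The 5′ region of the gene (chr1:154884200-154884863) was weak, at most 0.438 in the PWK male. It was called in all 6 wild-derived samples and in 2 of 10 classical ones, the 129 and NOD females. Lists of wild-derived samples tend to be longer, and the part of list length in these calls was not tested. The share of all regions called in this way was not counted.

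**Figure D4:**
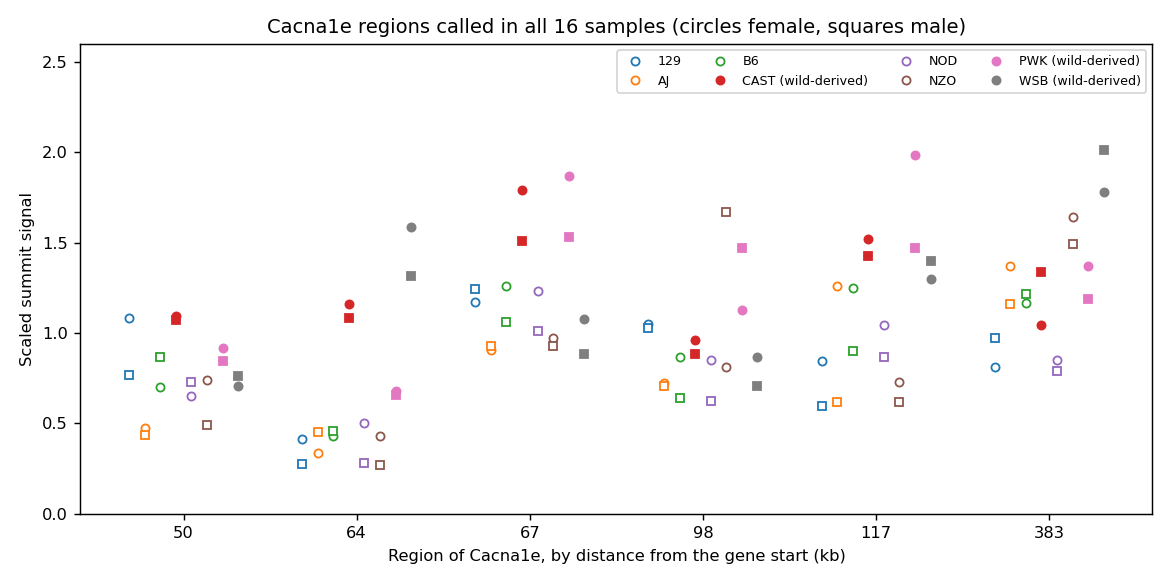
Scaled summit signal (y axis) of the 6 *Cacna1e* regions called in every sample, in order of distance from the gene start in kb (x axis, evenly spaced and not to scale), with wild-derived strains filled, classical strains open, females as circles and males as squares. At 64 kb and at 117 kb every filled symbol lies above every open one, and at 98 kb, the region that did not pass the strain test, they are mixed.

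*Cacna1h* (chr17:25374285-25433783, minus strand) encodes a T-type pore that opens near the resting potential. Its 4 regions all lay in intron 2 and none was called in every sample. They were called in 8, 8, 7 and 2 samples, with a highest scaled signal of 0.632 in the WSB female. Each was called in both WSB samples, 3 of the 4 in both CAST samples, and none in the AJ or NOD samples or the PWK male. Autosomal peaks numbered 133259 to 167051 in the WSB and CAST lists, 77887 to 96126 in those of AJ and NOD, and 145886 in the PWK male. How far list length enters these calls was not tested, and the share of all regions with such a pattern was not counted. No 5′ region was called, and none of the 7 annotated start sites lay in a region.

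*Cacnb2* (chr2:14603088-14987908, plus strand) encodes a β subunit that binds the α1 pore and carries it to the membrane. It held the strongest region of the channel genes, an 8036-base region over the 5′ end (chr2:14602400-14610435) that also covers *Gm10849*. Scaled signal there ran from 4.78 to 6.28 in 15 samples, and the NZO male had 2.84. The mean was 5.40 ± 0.816 (SD, n = 16), and strain did not pass (adjusted p = 0.535). The differences in *Cacnb2* lay in its introns instead. In the lead region (intron 2 of Cacnb2-214, chr2:14935901-14937241) PWK had 0.629 and 0.656, below every other sample, the nearest being 1.14 in the CAST male. The highest values were 4.15 in the NZO female and 3.69 in the B6 male, yet their opposite sexes had 1.82 and 2.29, so the order at the top was not clear of the spread within strains. The ratio of B6 (2.99 ± 0.991) to PWK (0.643 ± 0.0192) was 4.65, and strain passed with an adjusted p of 0.00606 (0.0576 without PWK).

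The other 8 called regions of *Cacnb2* had no common order of strains. WSB was highest in 2, CAST in 1, PWK in 1, and a classical strain in 4. In a region of an upstream intron (chr2:14687509-14688208), picked after its values were seen, WSB had 0.868 and 0.852 and PWK 1.08 and 0.625, against 0.164 to 0.560 in classical samples and 0.522 to 0.632 in CAST (adjusted p = 0.0138). The class difference there was 0.99 on the log2 scale and did not pass the limma class test (adjusted p = 0.188).

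*Cacnb3* (chr15:98630840-98644529, plus strand) encodes another β subunit. Its 5′ region (chr15:98631419-98632517) was called in 13 samples and was absent from the lists of both AJ samples and the NOD female. Where it was called it ran from 0.289 in the B6 male to 1.11 in the NZO male, and the CAST samples had 0.849 and 0.743. With values missing in 3 lists it did not enter the test.

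*Cacna2d1* (chr5:15934691-16374511, plus strand) encodes the extracellular α2δ subunit, the target of gabapentin. Its 5′ region (chr5:15932993-15936639), over exon 1 and part of *Gm3510*, was open in every sample at a mean of 2.29 ± 0.352 (SD, n = 16). WSB was highest at 2.75 and 2.76, and NZO lowest at 1.95 and 1.51, but strain did not pass (adjusted p = 0.249, or 0.0321 with no centring). The strongest region of the gene, in intron 4 (chr5:16184005-16187650), ran from 2.44 in the NZO male to 5.77 in the 129 male, with a median of 3.21 in wild-derived and 4.98 in classical samples (adjusted p for strain = 0.0646, or 0.0287 without the NZO female, and for class 0.445). In the lead region (intron 3 of Cacna2d1-202, chr5:16062515-16063511) CAST stood alone at the bottom, with 0.632 in the female and 0.684 in the male. All other samples ran from 1.16 in the NZO male to 2.10 in the PWK female. B6 (1.99 ± 0.0168) was 3.02 times CAST (0.658 ± 0.0366), and strain passed with an adjusted p of 0.0066. The call rested on CAST, since without that strain the adjusted p was 0.415, and it was also lost without centring (0.112) and with the mean signal of a peak (0.066).

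Upstream in the same intron, another region (chr5:16056420-16057357), picked after its values were seen, followed a different order. WSB had the highest mean, from 5.56 and 4.91, although the B6 male had 4.94, and 129 was lowest at 1.48 and 1.77, while CAST was intermediate at 3.09 and 3.57 (adjusted p = 0.049, lost in 16 of 33 alternatives). Within intron 10 (chr5:16292857-16293599), also picked after its values were seen, NOD was highest at 0.488 and 0.598. WSB had the lowest mean there, from 0.160 and 0.114, and overlapped the PWK male (0.125) and the 129 female (0.155), with an adjusted p of 0.0101. The wild-derived class was lower there, by a class difference of -1.10 on the log2 scale, which did not pass the limma class test (adjusted p = 0.170). The order of strains differed among these 3 regions of 1 gene.

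Averaging the shared regions of a gene gave 1 value per gene, tested over all 19081 autosomal genes with a shared region. Strain changed 1 of the 6 channel genes that could be tested, against a background of 28.8% of genes, and the gene was *Cacna1e* (adjusted p = 0.0121). Its centred log2 mean was 0.28 in CAST, 0.24 in PWK and 0.17 in WSB, against -0.23 in B6, -0.33 in 129 and NZO, -0.43 in NOD and -0.48 in AJ. By sample it ran from 0.14 to 0.30 in the 6 wild-derived and from -0.57 to -0.17 in the 10 classical samples, with no overlap, as in 0.225% of all genes. The class difference was 0.59 ± 0.16 (SE) on the log2 scale with an adjusted p of 0.329. The strain call was lost without the CAST male (0.0554), without CAST (0.0631), with the mean signal of a peak (0.0938) and when regions called in at least 12 samples were averaged (0.131). For *Cacna1d* the adjusted p was 0.0668, with 129 highest at 0.76 and AJ lowest at -0.09, and it passed in 10 of 33 alternatives. *Cacna1a* (0.145), *Cacnb2* (0.283), *Cacna1c* (0.292) and *Cacna2d1* (0.419) did not pass. Of the 3 Schwann and neuronal markers, *Sox10* was at 0, and the summed scaled signal of *Tubb3* and *Snap25*, the latter also used by endocrine cells, was 4.16 to 5.55 in wild-derived and 3.04 to 5.02 in classical samples, and that of the pan-endocrine markers 16.7 to 20.0 and 12.8 to 21.4. The acinar markers, of which *Ctrb1* and *Ptf1a* were at 0, summed to 0.912 to 1.81 in wild-derived and 0.395 to 2.49 in classical samples. Wild-derived and classical medians were 1.33 and 0.832 for acinar, 17.7 and 19.8 for pan-endocrine, and 4.698 and 3.85 for *Tubb3* and *Snap25*. Among all samples the NZO male had the highest acinar sum, the lowest pan-endocrine sum and the lowest sum of *Tubb3* and *Snap25*. All other classical acinar sums lay below the wild-derived median, but their range overlapped that of the wild-derived samples. The part of cell composition in the *Cacna1e* difference was not tested.

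**Figure D5:**
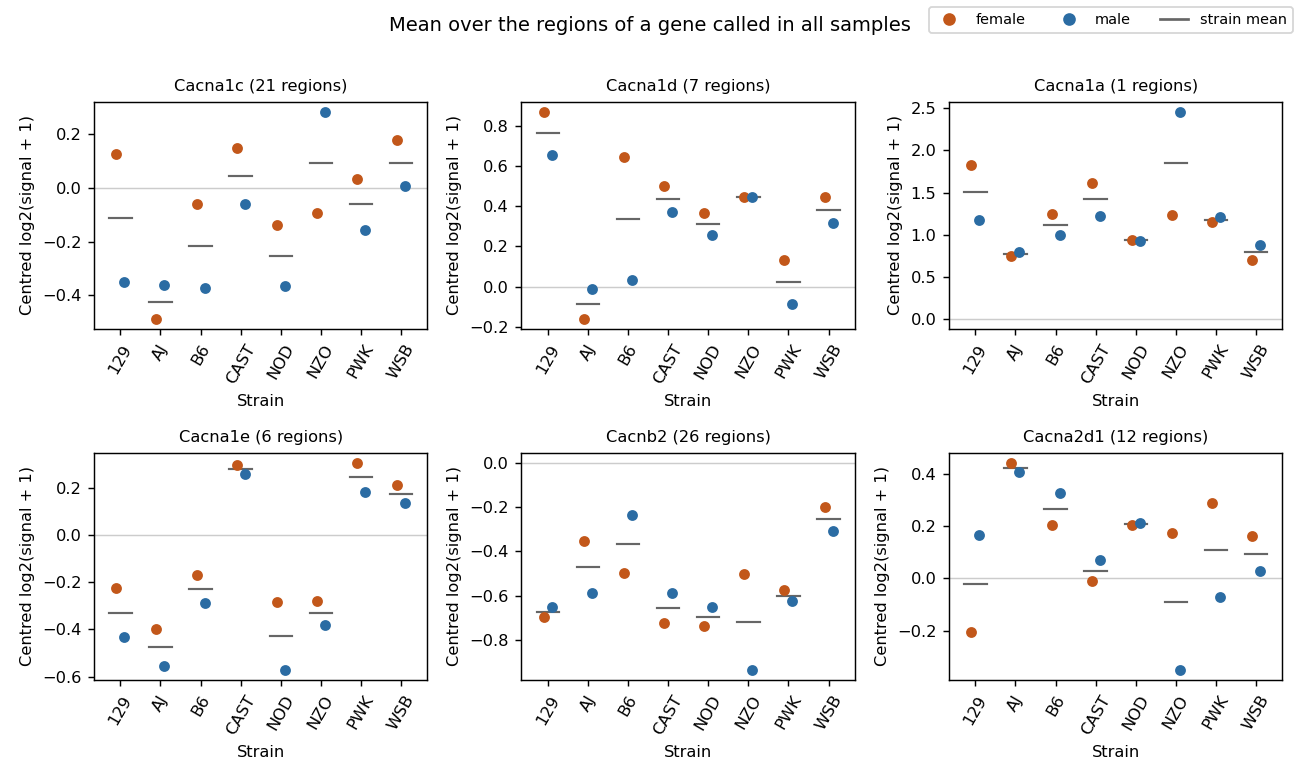
Mean centred log2(signal + 1) (y axis) over the regions of a gene called in every sample, by strain (x axis), with the female (orange), the male (blue) and the strain mean (grey line). The panel of *Cacna1e* has its 6 wild-derived points above 0 and its 10 classical points below 0, while in the other 5 panels the classes overlap.

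No channel gene region passed the test between the strain classes or between the sexes. The class test on the 8 strain means in limma called 0 of 73, against a background of 0.0342% of shared regions, and at an unadjusted p under 0.05 it gave 16 of 73 (21.9%) against 12.1% of all regions. The class difference was above 0 in 50 of the 73 regions (68.5%) against 44.6% of all shared regions. With no centring these shares were 76.7% and 65.4%, and with quantile normalisation 69.9% and 50.4%. On the centred values the median difference was 0.13 on the log2 scale over the 73 regions and -0.05 over all regions. With no centring these medians were 0.31 and 0.14, and with quantile normalisation 0.20 and 0.00, so the channel gene median was the higher one under each scaling. WSB had the highest strain mean in 17 of the 73 regions (23.3%) against 9.14% of all shared regions, and 129 the lowest in 16 (21.9%) against 8.46%. These shares are descriptions of chosen genes and carry no test. For sex, limma called 0 of 73 regions against a background of 0%, with 3 of 73 and 1621 of 40940 at an unadjusted p under 0.05. The interaction of strain class and sex in limma passed in 0 of the 73 regions and in 0 of the 40940, with 1 of the 73 at an unadjusted p under 0.05.

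Regions seen in the lists of a single strain numbered 222 of 580 (38.3%), against 50.8% of all regions. They came mainly from WSB (86), CAST (50) and PWK (50), then NZO (21), B6 (7), 129 (4), AJ (3) and NOD (1). WSB took 14.8% of the channel gene regions against 8.56% of all regions and CAST 8.62% against 7.76%, while PWK took 8.62% against 14.3% and NZO 3.62% against 10.7%. In both samples of a strain and in no other sample there were 24, or 4.14% against 4.40% of all regions, of which 12 were in CAST, 11 in WSB and 1 in PWK. For CAST this was 2.07% of the channel gene regions and 1.80% of all regions, and for WSB it was 1.90% and 1.01%. For PWK it was 0.172% and 0.974%, and for NZO 0% and 0.322%. The strongest was the CAST region of *Cacna1c* intron 1 (chr6:119159465-119159923), whose window is the last shown above. Its scaled signal was 1.09 in the female and 1.18 in the male, above the level of a typical shared region, with no peak in the other 14 lists. The next was the region of the PWK samples in intron 6 of *Cacna2d1* (chr5:16241099-16241600), at 0.694 and 0.562, followed by WSB regions in intron 14 of *Cacna1c* (chr6:118693941-118694319), at 0.462 and 0.489, and in intron 5 of *Cacna1d* (chr14:30182843-30183020), at 0.274 and 0.330. In exon 19 of *Cacna1a* (chr8:84559053-84559244) CAST had 0.236 and 0.221. These 4 weaker regions lie below the level of a typical shared region, where a peak just under the threshold in other strains is listed as 0.

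Motif matches were counted on both strands of such windows of B6 sequence. The E-box CAGATG stood in 21 of the 73 channel gene windows (28.8%) and in 19.4% of all shared windows, the MAF core TGCTGA in 18 (24.7%) and 19.3%, the RFX core GTTGCC in 11 (15.1%) and 11.2%, and the AP-1 motif TGANTCA in 11 (15.1%) and 12.7%. The NKX2 motif CACTTNA stood in 9 (12.3% against 10.5%), the FOXA motif TGTTTAC in 4 (5.48% against 6.30%), the homeobox motif TAATTA in 4 (5.48% against 5.82%) and the CTCF motif CCANNAGGG in 1 (1.37% against 6.60%). Intronic windows genome-wide had the E-box in 24.1% and the MAF core in 22.7%, beside 25.0% and 23.1% of the intronic channel gene windows. The RFX core stood in 11.1% of intronic windows genome-wide and 17.3% of the intronic channel gene windows, and the CTCF motif in 6.40% and 0%. Among the 28 regions that changed with strain, 10 held the E-box (35.7%), 7 the MAF core and 5 the RFX core. The AP-1 motif stood in 5, NKX2 in 4, FOXA in 2, homeobox in 1 and CTCF in 0. Motifs were not counted over all strain-changed regions genome-wide, so these counts have no matching background. The median GC content was 47.3% against 49.8% for all shared windows and 46.8% for intronic ones. A match to B6 letters is not a bound site, and no variant of another strain was read.

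The remaining genes of the family held fewer shared regions. Of 17 other autosomal channel subunit genes, 9 had a region called in every sample, 27 regions in all, and strain changed 5 of these regions (18.5%) and the mean of 1 gene, *Cacng8*. Of 16 genes of calcium stores, pumps and store-operated entry, 12 had such regions, and strain changed 16 of 75 regions (21.3%) and the means of *Itpr2*, *Itpr3* and *Stim1*. Both shares lie below the background of 35.7%, and that of the 8 channel genes near it, and the lists were not compared by a test. The gene whose mean followed *Cacna1e* most closely over the 16 samples was *C230024C17Rik* (Pearson r = 0.948), and those for *Cacna1c*, *Cacna2d1*, *Cacna1a*, *Cacna1d* and *Cacnb2* were *Tacc2* (0.960), *Gm36406* (0.971), *Cct6b* (0.975), *Ykt6* (0.927) and *Tmem178b* (0.915). Their means rest on 1 shared region for *Gm36406* and *Cct6b*, 2 for *C230024C17Rik* and *Ykt6*, 3 for *Tacc2* and 15 for *Tmem178b*. For *Cacna1a*, itself 1 region, 476 genes exceeded r = 0.9, against 1 to 15 genes for the others. Each was the best of at least 19075 genes, and the samples share strain and library, so these are descriptions.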

How the data were processed

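ATAC-seq was run on islets of 8 strains with 1 female and 1 male each. Per the study's methods and the submitters' processing notes, the authors trimmed reads with cutadapt 2.0, aligned them to mm10 with bowtie2 2.3.4.1, removed unmapped reads with SAMtools and duplicates with Picard 2.9.2, and called peaks in each sample with MOSAiCS (false discovery rate 0.05) after blacklist filtering. A shift for the transposase cut is not given in the sources used here. The deposited signal is the whole-number signal at a summit and is not scaled to depth, and the deposited significance is a −log10 p-value, used here only to shorten lists. A deposited mean signal of each peak served as an alternative. The authors also made strain lists by irreproducible discovery rate (IDR), deposited on a −log10 scale, of which peaks at 0.05 or better were an alternative. The lists carry no read total of a sample, so no counting interval is given.

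Touching or overlapping peaks were merged (pandas 2.3.3). A region belonged to a gene by the M21 release of GENCODE for GRCm38 (mm10). On all 19 autosomes the last peak lay within the chromosome. Regions were classed as promoter within 1000 bases of a start site, then exon, intron or intergenic. Values were log2(signal + 1), centred on the sample median over regions called in all 16 samples. limma 3.58.1 in R 4.3.3 tested strain and sex in 1 model, and strain class on the 8 strain means, with Benjamini-Hochberg adjustment over all regions or genes. The scripts were tested on simulated data. Grouping into strain classes follows the text of the study. An exact test over the 56 splits of the strains was planned for the share of regions in the channel genes. Its p is not given, since the genes were chosen. Named regions were, for each gene, the region of the 5′ end called in most samples, the shared region with the smallest p for strain (the lead region) and the strongest shared region, and over all genes the 5 strongest regions called in both samples of 1 strain only. Regions picked otherwise are said to be. The members and gene lists were chosen with earlier results of these data known. No column of another sample was present (0 unused). No lists of any pair of samples were identical (0 pairs). Sequences and motifs were read from the RefSeq copy of GRCm38 with pysam 0.24.0. Alternatives were no centring, quantile normalisation, log2(signal + 5), the mean signal, the upper part of each list by significance, equal numbers of peaks (77887), regions called in at least 12 samples, no sex term, gene bodies alone, coverage of at least 0.5 of a region, and leaving out each sample and each strain.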

Additional observations from a re-analysis of the deposited data

Results flagged for a closer look

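Extreme samples were sought among the 10 classical and the 6 wild-derived samples for the named shared regions, the gene means and the share of regions, in 38 groups, of which 2 stood out by the gap to the next sample relative to the range. Chance gives about 1 in 20. In the *Cacna1a* region at the end of the gene, the NZO male had a scaled signal of 5.56 and the next classical sample, the 129 female, 3.60. At the 5′ region of *Cacnb2* the same NZO male had 2.84 and the next lowest classical sample, again the 129 female, 4.78. Both involve 1 library, and leaving out the NZO male changed neither call. This library also had the highest acinar (2.49), duct (2.27), leukocyte (1.16) and PP-cell (0.255) marker sums of all samples. Its pan-endocrine sum (12.8) and its Schwann and neuronal sum (3.04) were the lowest. Its β-cell sum was 13.8, and the lowest was 12.0 in the B6 male. The part of cell composition in the extreme values of the NZO male was not tested.

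*Cacna1f*, an L-type pore gene known from the retina, lies on chromosome X and was outside the comparisons. It had 2 regions, both called in all 16 samples. The region upstream of it (chrX:7604922-7606182) also covers the 5′ part of *Ccdc22* and reached a scaled signal of 2.72, with a median of 2.21. The region inside the gene (chrX:7610079-7611299) reached 0.846, with a median of 0.50. They are given because a signal was present outside the compared regions, and the design has no control samples.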

How the results depend on the processing

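The count of strain-changed regions was 28. It moved to 50 with no centring, 12 with the mean signal of a peak and 14 without CAST (63.2%, 27.8% and 15.5% of all regions), and ran from 14 to 45 when 1 sample was left out (14 to 37 for 1 strain). In the remaining alternatives it stayed within 1.5 times. The share in channel genes was above that of all regions in the main test and below it in 11 of 33 alternatives, by the most with the mean signal (16.4%), and among them with regions called in at least 12 samples (14.9% against 18.3%). The class and sex tests in limma called 0 regions in every alternative that was run. The count of changed gene means was 1, and it was 6 with no centring, 0 with the mean signal or without CAST, 2 with the upper part of each list, with equal numbers of peaks, with regions called in at least 12 samples or without B6, and 3 without NZO (0 to 3 when 1 sample was left out). Without centring the 6 tested genes all passed, as did 16921 of 19081 genes, and there the values carry no common scale. Regions called in all samples numbered 73, and 42 with the upper part of each list, 5 when a call needed peaks over 0.5 or more of the region and 36 with strain lists at IDR 0.05, with 73 to 85 when 1 sample was left out. Regions of a single strain numbered 222, and 73 with the upper part of each list, 73 with equal numbers of peaks and 63 with IDR lists (196 to 226 when 1 sample was left out). The difference between classes in the share of regions was 0.0381 points, 0.0515 with the upper part of each list, 0.0854 at 0.5 coverage, and 0.0312 to 0.0450 when 1 sample was left out. With IDR lists, regions called in all strains were 18.3% of channel gene regions against 24.0% of all, and regions of a single strain 32.0% against 27.9%, so both comparisons with all regions turned. The cause of these shifts was not tested. No paired analysis was possible because the replicate numbers only name the female and the male, and sex is already a term of the model. With 2 samples per strain, small differences and regions just under the peak threshold cannot be resolved, and strain, library and alignment to the B6 reference cannot be told apart.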
